A study of Mus musculus with 6 samples.

Results

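The 10 genes described here encode enzymes that crosslink collagen and proteins that fold and modify it before secretion: the lysyl oxidases Lox, Loxl1, Loxl2, Loxl3 and Loxl4, the lysyl hydroxylases Plod1, Plod2 and Plod3, the transglutaminase Tgm2 and the chaperone Serpinh1. They were chosen by gene symbol, with earlier results of these data known, and all 10 were found among the 18849 genes of the expression table. Expression was measured by RNA sequencing of whole kidney in 3 libraries from c-Abl knockout mice and 3 from floxed control mice. Knockout mice carried c-Abl (Abl1) alleles flanked by loxP sites together with Ksp-Cre, a recombinase driven by the promoter of kidney-specific cadherin and therefore active in tubule epithelium, whereas other kidney cells keep the gene; their genotype label reads c-Abl knockdown. Control mice are c-Abl flox/flox in the design text and WT in their genotype label, and are called floxed here. All were male C57BL/6 mice, 8 weeks old, and every kidney had undergone unilateral ureteral obstruction (UUO) for 14 days, so no unobstructed kidney enters the comparison. The labels do not say that each library is a separate mouse. The p-values therefore reflect variation among these 6 libraries, which may be partly technical.

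Collagen chains are modified while they enter the endoplasmic reticulum. Lysyl hydroxylases convert chosen lysines to hydroxylysine, and the chaperone encoded by Serpinh1 (HSP47) binds the folded triple helix until it leaves that compartment. Outside the cell, the copper-dependent lysyl oxidases turn lysine and hydroxylysine side chains into reactive aldehydes, from which the covalent crosslinks of collagen and elastin form. Transglutaminase 2 joins glutamine and lysine residues of matrix proteins directly. In scarred kidney these enzymes are known for making matrix stiff and slow to break down.

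In these libraries 9 of the 10 genes passed the expression filter (at least 1 FPKM in at least 3 of the 6 libraries), and Loxl4 did not. FPKM is the number of fragments scaled to gene length and to the mapped fragments of the library, so levels can be set side by side between genes. Log2 fold changes are knockout minus floxed on the log2(FPKM + 1) scale, which understates changes of weakly expressed genes, and come from limma with p-values adjusted over all 13390 genes tested. The spacing of low values implied about 15900000 to 17950000 fragments per library, at which 1 FPKM stands for 15.9 to 17.9 fragments per kilobase.

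The knockout libraries were not alike, which bears on every value below. On the first principal component, holding 61.8% of the variance, knockout replicates 1 and 2 lay at 54.1 and 37.4 and knockout replicate 3 at -7.48, against -29.0 to -26.2 for the floxed libraries. Abl1 itself read 10.46, 14.45 and 12.91 FPKM in knockout replicates 1, 2 and 3, against 18.16, 15.93 and 17.33 FPKM in floxed replicates 1, 2 and 3 (limma adjusted p = 0.144, exact two-sided permutation p = 0.1, the smallest that 3 against 3 libraries allow). Over all genes tested the log2 fold change had a median of -0.12, and 34.0% of the genes with an unadjusted limma p under 0.05 were higher in knockout kidneys. With median-ratio scaling of the libraries those values were 0.0012 and 51.4%.

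All 10 genes had a lower mean in knockout than in floxed kidneys, but by very different amounts. The lysyl oxidases and Serpinh1 stood at 0.313 to 0.517 times the floxed mean, the lysyl hydroxylases at 0.652 to 0.731 times, and Tgm2 at 0.954 times. No gene of the group passed the limma threshold of 0.05 after adjustment (0 of 9 tested), where 0.0672% of all genes tested did. At an unadjusted limma p under 0.05, 7 of the 9 were lower, against 16.3% of all genes tested. On the FPKM values as deposited, every knockout library lay below every floxed library for 7 of the 9. The same held for 21.7% of all genes tested. Median-ratio scaling divides floxed replicate 1 by 1.10 and knockout replicate 3 by 1.02, after which the groups overlap for Plod1 and Plod3. Their separation thus depends on the scaling. The 9 had a median log2 fold change of -1.10, against -0.12 over all genes tested. All 9 were below 0, as were 8761 of all 13390 genes tested.

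**Figure D1:**
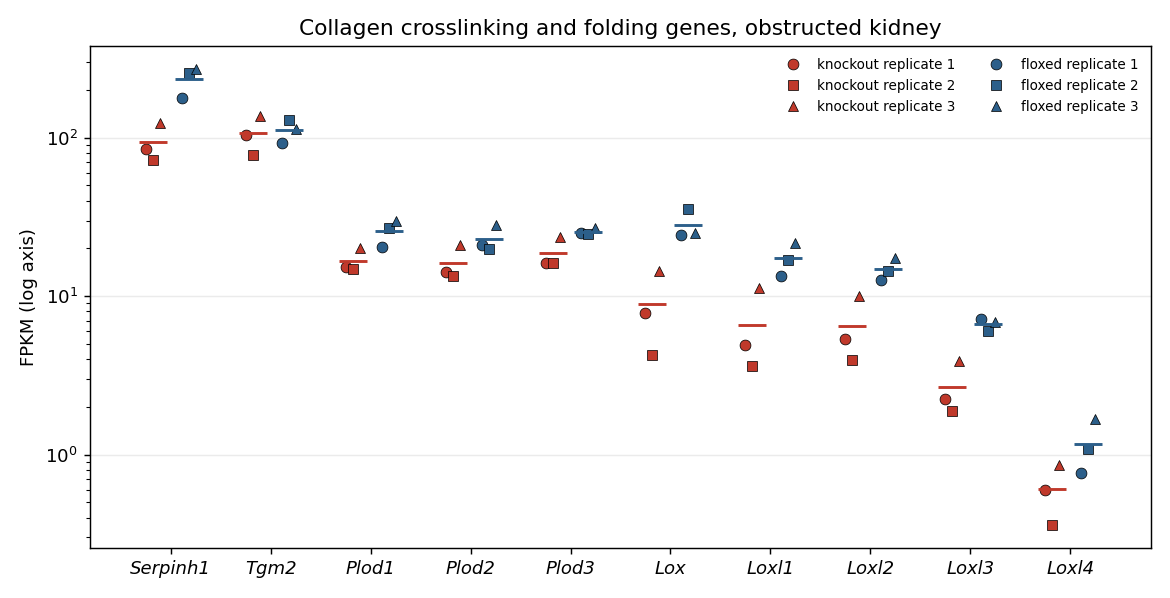
FPKM of the 10 genes on a log axis, 1 symbol per library, with knockout libraries in red left of floxed libraries in blue and a bar at each group's mean. Knockout replicate 2 is the lowest of the 6 libraries and knockout replicate 3 the highest of the 3 knockout libraries for all 10 genes, and the groups overlap only for Tgm2, Plod2 and Loxl4.

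Among the lysyl oxidases, Lox, the founding member and a main crosslinking enzyme of fibrillar collagen and elastin, was the most abundant and had the lowest fold change. It read 7.84, 4.24 and 14.5 FPKM in knockout replicates 1, 2 and 3, against 24.38, 35.53 and 24.92 FPKM in floxed replicates 1, 2 and 3. The groups did not overlap, and knockout replicate 3 lay closest to the floxed libraries. Mean expression was 8.86 ± 5.21 FPKM in knockout and 28.3 ± 6.29 FPKM in floxed kidneys (SD, n = 3 libraries each), 68.7% lower. The log2 fold change was -1.69 (SE 0.379, limma adjusted p = 0.0759).

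Loxl1, which in mice is needed to maintain elastic fibres, read 4.9, 3.63 and 11.23 FPKM in knockout replicates 1, 2 and 3, against 13.39, 16.98 and 21.54 FPKM in floxed replicates 1, 2 and 3. Again the groups were apart, with a gap of little more than 2 FPKM between knockout replicate 3 and floxed replicate 1. Its log2 fold change was -1.38 (SE 0.365, limma adjusted p = 0.0986). Loxl2, an oxidase that also acts on the type IV collagen of basement membranes, read 5.38, 3.96 and 10.03 FPKM in the knockout replicates, against 12.58, 14.37 and 17.28 FPKM in the floxed replicates. All knockout libraries were below all floxed ones (log2 fold change -1.15, SE 0.294, limma adjusted p = 0.0941).

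Loxl3, whose loss in mice disturbs palate and spine formation, was weaker but steadier. It read 2.25, 1.88 and 3.88 FPKM in knockout replicates 1, 2 and 3, against 7.12, 5.99 and 6.89 FPKM in floxed replicates 1, 2 and 3, a coefficient of variation of 39.9% in knockout and 8.96% in floxed kidneys. The log2 fold change was -1.10 (SE 0.216, limma adjusted p = 0.0639). In the GRCm38 gene table Loxl3 overlaps Htra2, a mitochondrial protease gene, and strand use in counting is not given in the sources used here, so reads of the shared part cannot be assigned; Htra2 averaged 24.1 ± 2.72 FPKM in knockout and 29.5 ± 6.07 FPKM in floxed kidneys (limma adjusted p = 0.345). Loxl4, the weakest member, read 0.6, 0.36 and 0.86 FPKM in the knockout replicates, against 0.76, 1.08 and 1.68 FPKM in the floxed replicates. Its groups overlapped and it was not tested.

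Summed over the 5 lysyl oxidases, expression was 25.2 ± 13.7 FPKM in knockout and 68.2 ± 8.64 FPKM in floxed kidneys, 63.1% lower, with ranges of 14.1 to 40.5 FPKM in knockout and 58.2 to 74.0 FPKM in floxed kidneys. The make-up of the family is given by each gene's share. Lox held 34.4% ± 3.81 of the summed FPKM in knockout and 41.5% ± 6.80 in floxed kidneys, and Loxl1 held 25.6% ± 2.19 in knockout and 25.2% ± 3.93 in floxed kidneys. Loxl3 held 11.2% ± 1.94 in knockout and 9.95% ± 2.10 in floxed kidneys, and Loxl4 2.51% ± 0.371 in knockout and 1.70% ± 0.549 in floxed kidneys. Loxl2 was the only 1 of the 5 whose share did not overlap between the groups, at 26.2% ± 1.75 in knockout and 21.6% ± 2.23 in floxed kidneys (24.8% to 28.1% in knockout, against 19.4% to 23.9% in floxed). These shares are descriptions without a test.

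Serpinh1, the collagen chaperone, was the most abundant of the 10 genes in floxed kidneys. It read 84.46, 72.78 and 123.73 FPKM in knockout replicates 1, 2 and 3, against 177.05, 257.04 and 272.39 FPKM in floxed replicates 1, 2 and 3. The highest knockout library stayed well below the lowest floxed library. The log2 fold change of -1.33 (SE 0.248) had the smallest p of the 9 genes tested and ranked 226 of 13390 genes, with a limma adjusted p of 0.0620.

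The lysyl hydroxylases act on the same procollagen in the same compartment, with smaller differences. Plod1, which hydroxylates lysines of the triple helix, read 15.23, 14.77 and 20.18 FPKM in knockout replicates 1, 2 and 3, against 20.35, 26.86 and 29.71 FPKM in floxed replicates 1, 2 and 3. The groups missed each other narrowly, since knockout replicate 3 and floxed replicate 1 were nearly level (log2 fold change -0.58, SE 0.185, limma adjusted p = 0.129). Plod2, which hydroxylates the telopeptide lysines that give the stable crosslinks of scar tissue, read 14.29, 13.35 and 21 FPKM in the knockout replicates, against 20.94, 19.79 and 28.13 FPKM in the floxed replicates. Here knockout replicate 3 lay within the floxed range, and the 95% interval of the log2 fold change of -0.49 reached from -0.98 to 0.0089 (limma adjusted p = 0.208).

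Plod3, which also adds sugars to hydroxylysine, read 16.26, 16.08 and 23.51 FPKM in knockout replicates 1, 2 and 3, against 24.98, 24.56 and 26.87 FPKM in floxed replicates 1, 2 and 3. Knockout replicates 1 and 2 were nearly equal and clearly low, while knockout replicate 3 came just below the floxed range (log2 fold change -0.45, SE 0.165, limma adjusted p = 0.161). With median-ratio scaling the log2 fold changes of Plod1, Plod2 and Plod3 were smaller, at -0.45, -0.36 and -0.32 (limma adjusted p = 0.205, 0.310 and 0.226). Plod3 overlaps Znhit1 in the GRCm38 gene table, and that gene averaged 40.9 ± 2.94 FPKM in knockout and 43.3 ± 7.03 FPKM in floxed kidneys. The 3 hydroxylases kept nearly even shares of their summed FPKM: Plod1 held 32.6% ± 1.24 in knockout and 34.5% ± 3.54 in floxed kidneys, Plod2 31.3% ± 1.13 in knockout and 30.9% ± 2.78 in floxed, and Plod3 36.1% ± 0.487 in knockout and 34.6% ± 2.99 in floxed. Their sum was 51.6 ± 11.4 FPKM in knockout and 74.1 ± 9.55 FPKM in floxed kidneys, 30.4% lower.

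The promoter sequences of Serpinh1 and Plod1 are shown because both proteins work on procollagen in the endoplasmic reticulum, while their mean levels stood at 0.398 and 0.652 times the floxed mean. RefSeq promoter entries (build GRCm38.p6, not the mm9 build of the expression data) were found for 4 of the 10 genes, namely Loxl4, Plod1, Plod3 and Serpinh1. The 250 bases before the start of Serpinh1 (chr7:99353240-99353489, minus strand) and of Plod1 (chr4:147936777-147937026, minus strand) read 5′ to 3′ as follows, with matches in capitals to GGGCGG (the GC box), CAGAC (a SMAD-type box) and ACGTG (the core of hypoxia response elements) on either strand.
Serpinh1: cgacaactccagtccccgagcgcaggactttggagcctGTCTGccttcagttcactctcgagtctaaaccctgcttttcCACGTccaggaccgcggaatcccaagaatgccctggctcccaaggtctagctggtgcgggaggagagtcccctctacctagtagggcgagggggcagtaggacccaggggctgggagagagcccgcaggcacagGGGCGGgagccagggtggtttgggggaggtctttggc
Plod1: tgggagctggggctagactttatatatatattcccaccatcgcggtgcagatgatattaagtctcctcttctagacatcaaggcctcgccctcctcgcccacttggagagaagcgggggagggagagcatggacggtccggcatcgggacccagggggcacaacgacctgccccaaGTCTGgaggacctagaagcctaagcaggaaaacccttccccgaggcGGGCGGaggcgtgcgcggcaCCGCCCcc
Serpinh1 held 1 match to each of the 3 motifs, starting 37, 212 and 171 bases before the start site. Plod1 held 2 matches to GGGCGG, at 28 and 8 bases, and 1 to CAGAC, at 74 bases, and none to ACGTG. Neither held GAANNTTC or TTCNNGAA, the inverted repeats of heat shock elements. Of the 32851 promoter windows of that length, 32.7% held GGGCGG, 42.2% CAGAC, 16.6% ACGTG and 12.8% a heat shock repeat. A match describes letters only and is not evidence of a bound site.

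Tgm2 differed least of the 10. It read 103.66, 77.53 and 137.76 FPKM in knockout replicates 1, 2 and 3, against 92.03, 128.58 and 113.84 FPKM in floxed replicates 1, 2 and 3. The lowest and the highest of the 6 libraries were both knockout libraries, so the groups were mixed. The log2 fold change was -0.09 with a 95% interval from -0.64 to 0.45 (limma adjusted p = 0.814), and its sign turned with median-ratio scaling (0.04). In knockout kidneys Tgm2, at 106 ± 30.2 FPKM, and Serpinh1, at 93.7 ± 26.7 FPKM, overlapped in range, although Tgm2 was the higher within each of the 3 libraries. In floxed kidneys Serpinh1, at 235 ± 51.2 FPKM, lay above Tgm2, at 111 ± 18.4 FPKM, in every library.

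Below these, the order of mean levels in knockout kidneys was Plod3, Plod1, Plod2, Lox, Loxl1, Loxl2, Loxl3 and Loxl4, and in floxed kidneys Lox, Plod1, Plod3, Plod2, Loxl1, Loxl2, Loxl3 and Loxl4. Lox thus ranked 6 of the 10 in knockout and 3 of the 10 in floxed kidneys. From the top of this stretch to Loxl2, each gene's range overlapped that of its next neighbour in both groups. Loxl3 and Loxl4 stood apart from their neighbours in both.

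The calls depended on knockout replicate 3. Without it, 8 of the 9 genes tested passed the limma threshold as lower, where 15.4% of all genes tested did, and Tgm2 did not (limma adjusted p = 0.278). The log2 fold changes were -2.08 for Lox, -1.78 for Loxl1, -1.47 for Loxl2, -1.32 for Loxl3 and -1.55 for Serpinh1 (limma adjusted p = 0.00456 to 0.00626). Those of Plod1, Plod2 and Plod3 were -0.72, -0.68 and -0.62 (limma adjusted p = 0.0316, 0.0358 and 0.0108). That library lies nearest the floxed ones, so leaving it out enlarges the differences by construction, and the calls show how much rests on 1 library.

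**Figure D2:**
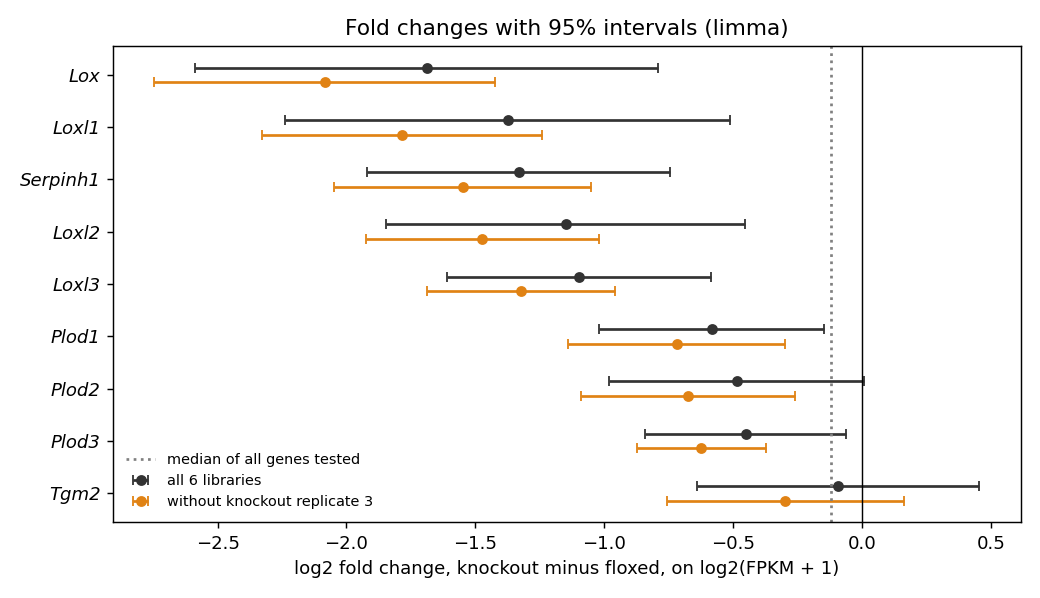
Log2 fold changes (knockout minus floxed, on the log2(FPKM + 1) scale) of the 9 tested genes with 95% limma intervals, with all 6 libraries in black and without knockout replicate 3 in orange; the dotted line is the median of all genes tested, -0.12. Lox has the lowest value in both fits and Tgm2 spans 0 in both.

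The collagens that these proteins serve were lower as well, so each gene was also set against type I collagen within its own library, a ratio that does not depend on scaling between libraries. Col1a1 and Col1a2, the chains of type I collagen, summed to 59.97, 41.31 and 166.71 FPKM in knockout replicates 1, 2 and 3, against 251.74, 308.88 and 325.31 FPKM in floxed replicates 1, 2 and 3. For Lox the ratio was similar in size between the groups. There were 131, 103 and 87.0 FPKM of Lox per 1000 FPKM of type I collagen in knockout replicates 1, 2 and 3, against 96.8, 115 and 76.6 in floxed replicates 1, 2 and 3. The groups overlapped, with a log2 difference of 0.15 (exact two-sided permutation p = 0.5). This comparison was made for all 10 genes.

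Serpinh1 stood at 742 to 1762 FPKM per 1000 FPKM of type I collagen in knockout and at 703 to 837 in floxed kidneys, also overlapping (log2 difference 0.64, exact permutation p = 0.3, 0.333 adjusted over the 10). Loxl3 and Loxl4 overlapped too (log2 differences 0.59 and 1.01). For Loxl1, Loxl2, Plod1, Plod2, Plod3 and Tgm2 the ratio was higher in every knockout library than in every floxed library, which gives the smallest exact permutation p of 0.1 each (0.167 adjusted over the 10). That is 6 of the 9 genes tested, while the same held for 83% of all 13390 genes tested, so a higher ratio is not particular to these genes. The denominator itself did not overlap between the groups, being lower in every knockout library. The log2 difference was 0.44 for Loxl1 and 0.69 for Loxl2. It was 1.37 for Plod1, 1.47 for Plod2 and 1.505 for Plod3, and 1.88 for Tgm2, with 826 to 1877 FPKM of Tgm2 per 1000 in knockout and 350 to 416 in floxed kidneys. Without knockout replicate 3 the differences of these 6 genes were 0.55 to 2.26, and without knockout replicate 2 they were 0.36 to 1.67.

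**Figure D3:**
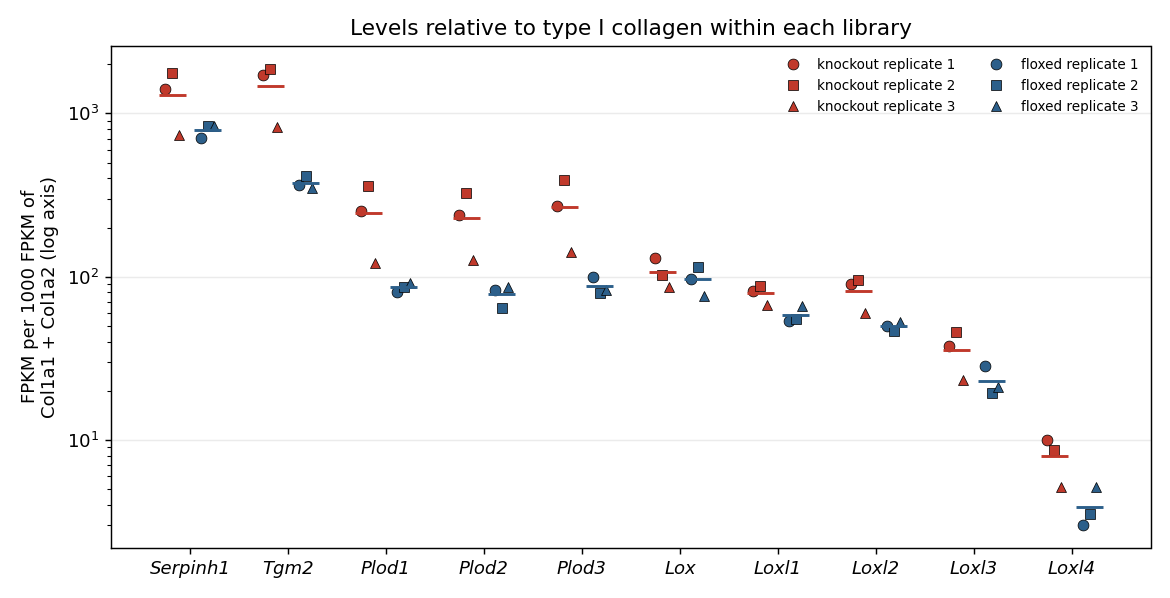
FPKM of each gene per 1000 FPKM of Col1a1 + Col1a2 in the same library, on a log axis, with symbols and colours as in the plot of levels and bars at arithmetic means. Knockout libraries lie above floxed ones for Tgm2, Plod1, Plod2, Plod3, Loxl1 and Loxl2 and overlap them for Lox, Serpinh1, Loxl3 and Loxl4; the ratio was higher in every knockout library for 83% of all genes tested.

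Of 14 collagens and other proteins that these enzymes act on, 13 were tested, and all 13 were below 0, with a median log2 fold change of -1.28 (0 past the limma threshold, 11 lower at an unadjusted p under 0.05, 13 lower without knockout replicate 3). Col1a2 read 36.54, 28.19 and 93.09 FPKM in knockout replicates 1, 2 and 3, against 152.91, 193.16 and 202.35 FPKM in floxed replicates 1, 2 and 3 (log2 fold change -1.96, limma adjusted p = 0.0687). Col3a1 averaged 50.8 ± 43.7 FPKM in knockout and 171 ± 29.5 FPKM in floxed kidneys, Col1a1 36.7 ± 32.4 FPKM in knockout and 112.5 ± 12.4 FPKM in floxed, and the microfibril gene Fbn1 3.09 ± 2.03 FPKM in knockout and 8.29 ± 1.78 FPKM in floxed kidneys.

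Of 22 other genes of collagen folding and hydroxylation, 21 were tested, with 17 below and 4 above 0 and a median log2 fold change of -0.43 (0 past the limma threshold, 9 lower at an unadjusted p under 0.05; without knockout replicate 3, 8 lower and 1 higher). The endoplasmic reticulum prolyl isomerases Fkbp7 and Fkbp10, of which Fkbp10 assists lysyl hydroxylase 2, averaged 7.04 ± 2.18 and 6.65 ± 3.24 FPKM in knockout and 18.3 ± 1.96 and 15.9 ± 1.37 FPKM in floxed kidneys (limma adjusted p = 0.0547 and 0.0764). P3h3, which in mice forms a complex with lysyl hydroxylase 1, averaged 6.82 ± 2.15 FPKM in knockout and 16.5 ± 1.49 FPKM in floxed kidneys (limma adjusted p = 0.0547), and the collagen-binding protein Sparc 211 ± 98.8 FPKM in knockout and 520 ± 48.7 FPKM in floxed kidneys.

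In procollagen export and cleavage, 11 of 16 genes were tested, 8 below and 3 above 0, with a median of -0.18. That is near all genes tested, with a median of -0.12 and 8761 of 13390 below 0. Of the 11, 0 passed the limma threshold, and at an unadjusted limma p under 0.05, 3 were lower and 1 higher. Bmp1, the protease that trims the carboxyl end of procollagen and also activates Lox, averaged 12.4 ± 6.89 FPKM in knockout and 29.3 ± 2.15 FPKM in floxed kidneys (limma adjusted p = 0.0885). Adamts2, which trims the amino end, averaged 3.06 ± 2.17 FPKM in knockout and 8.77 ± 2.27 FPKM in floxed kidneys, and the export genes Mia2 and Sec24d averaged 76.4 ± 9.89 and 10.01 ± 2.81 FPKM in knockout and 54.6 ± 4.06 and 14.3 ± 0.795 FPKM in floxed kidneys. Of 8 other genes listed as transglutaminases or factor XIII subunits, 4 were tested, 3 above and 1 below 0, with a median of 0.51 (0 past the limma threshold, 1 higher at an unadjusted p under 0.05). That 1 gene was F13b, which encodes the carrier subunit of clotting factor XIII and not a transglutaminase. Tgm1, Tgm7 and F13a1 had unadjusted limma p-values of 0.101, 0.310 and 0.226. Without knockout replicate 3 the median was 0.17 and F13b alone of the 4 passed. F13b read 45.63, 21.26 and 7.5 FPKM in knockout replicates 1, 2 and 3, against 4.65, 4.81 and 5.52 FPKM in floxed replicates 1, 2 and 3 (limma adjusted p = 0.123). Tgm1 averaged 16.4 ± 6.89 FPKM in knockout and 10.3 ± 1.53 FPKM in floxed kidneys.

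Markers of whole cell classes moved beside the crosslinking genes, and in bulk tissue fewer cells of a type and less RNA per cell cannot be told apart. Of all 13390 genes tested, 8761 were below 0. Of 8 fibroblast markers all 8 were below 0 (1 past the limma threshold, Dpt, adjusted p = 0.0446), and their summed level was 87.2 to 221 FPKM in knockout and 351 to 439 FPKM in floxed kidneys. Dcn, a collagen-binding proteoglycan, averaged 30.8 ± 8.28 FPKM in knockout and 80.0 ± 1.08 FPKM in floxed kidneys. Col1a2 stands in both this list and that of the substrates. For macrophages 7 of 8 markers were below 0, with sums of 660 to 1398 FPKM in knockout and 1654 to 2375 FPKM in floxed kidneys. Adgre1 averaged 10.6 ± 1.63 FPKM in knockout and 22.4 ± 4.74 FPKM in floxed, and Lyz2 449 ± 192 FPKM in knockout and 1220 ± 279 FPKM in floxed kidneys. All 6 endothelial markers were below 0, with sums of 68.2 to 82.0 FPKM in knockout and 89.7 to 150 FPKM in floxed kidneys. The groups overlapped for 4 of the 6 markers, and Eng and Emcn were the 2 that stayed apart. Eng averaged 20.0 ± 2.05 FPKM in knockout and 36.3 ± 6.12 FPKM in floxed, and Emcn 30.5 ± 5.93 FPKM in knockout and 52.1 ± 13.5 FPKM in floxed kidneys.

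Tubule markers, which show the tissue to be kidney, went the other way. All 8 proximal tubule markers were above 0, with sums of 1159 to 4320 FPKM in knockout and 854 to 1330 FPKM in floxed kidneys. Their median difference from the floxed mean was 1.77, 1.28 and 0.12 in knockout replicates 1, 2 and 3, on the log2(FPKM + 1) scale. The groups overlapped for 6 of the 8, and Cubn and Aqp1 were the 2 that stayed apart. Cubn averaged 18.7 ± 7.55 FPKM in knockout and 8.03 ± 1.51 FPKM in floxed kidneys. Aqp1 averaged 173 ± 79.8 FPKM in knockout and 68.6 ± 22.3 FPKM in floxed kidneys. All 6 distal nephron markers were above 0 (sums of 1055 to 2054 FPKM in knockout and 761 to 944 FPKM in floxed), with Cdh16 at 321 ± 61.0 FPKM in knockout and 216 ± 17.3 FPKM in floxed, and Aqp2 at 140 ± 151 FPKM in knockout and 21.3 ± 13.3 FPKM in floxed kidneys. No marker of macrophages, endothelium or tubule passed the limma threshold; 7, 2 and 10 of them did so at an unadjusted p under 0.05. Without knockout replicate 3, 7 fibroblast, 7 macrophage and 1 endothelial marker passed the limma threshold as lower, and 8 of 8 proximal tubule and 6 of 6 distal nephron markers as higher. That fit called 1208 of the 13390 genes tested as higher and 2063 as lower. With every library kept and p-values left unadjusted, the same cutoff of 0.05 in limma marked 1122 genes as higher and 2181 as lower. The 7 adipose and muscle markers in the table summed to at most 0.81 FPKM in knockout and 1.27 FPKM in floxed libraries, and Adipoq, an adipocyte hormone gene, was listed at 0 in all 3 knockout libraries and in 1 floxed library. The part of these shifts in cell markers in the values of the crosslinking genes was not tested.

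**Figure D4:**
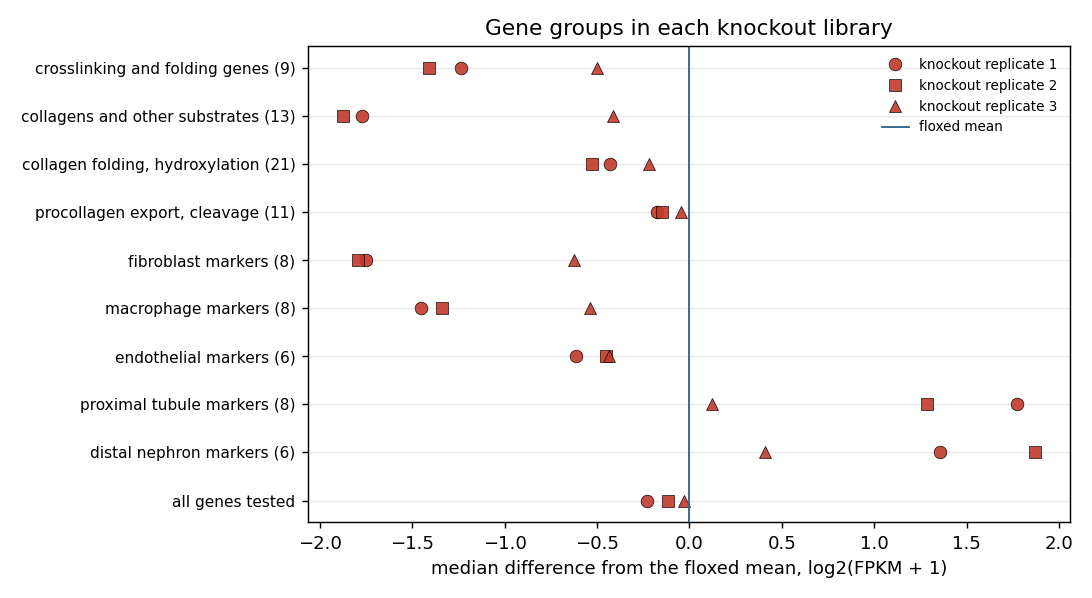
Median difference of each gene group from the floxed mean, on the log2(FPKM + 1) scale, in knockout replicates 1, 2 and 3, with the number of tested genes in brackets. The crosslinking and folding genes lie at -1.24, -1.41 and -0.50, macrophage markers at -1.45, -1.34 and -0.54, fibroblast markers at -1.75, -1.79 and -0.62, and all genes tested at -0.23, -0.12 and -0.03, and knockout replicate 3 lies nearest 0 in all 10 rows plotted. The 4 tested genes listed as other transglutaminases or factor XIII subunits are not plotted.

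Outside the group, 5 genes followed its median profile most closely over the 6 libraries, by the root mean square difference of log2(FPKM + 1) values set against the floxed mean. They were Defb36 (0.071), a defensin gene, Foxs1 (0.081), a forkhead transcription factor gene, Dusp5 (0.084), a phosphatase of the ERK pathway, Ptk7 (0.092), a pseudokinase of planar cell polarity, and Sdc3 (0.097), a cell-surface proteoglycan. Sdc3, for example, read 6.88, 6.15 and 10.34 FPKM in knockout replicates 1, 2 and 3, against 15.91, 16.99 and 20.67 FPKM in floxed replicates 1, 2 and 3. None of the 5 passed the limma threshold (adjusted p = 0.0570 to 0.112), and likeness over 6 libraries is a description only.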

How the data were processed

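Messenger RNA of 6 obstructed kidneys was measured by RNA sequencing. The authors deposited 1 table of FPKM values per gene and library, rounded to 2 decimals, per the file headers. Total RNA was extracted with TRIzol, per the labels' protocols, and the submitters' processing notes name mm9 as build. Aligner, counting tool, annotation, strand use and filters remain not given in the sources used here. FPKM is relative to all mapped fragments, so large changes in a few abundant genes shift all others. Groups and replicate numbers came from the sample titles.

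Genes with at least 1 FPKM in at least 3 libraries were converted to log2(FPKM + 1) and compared, knockout minus floxed, using limma (version 3.58.1, R 4.3.3). The model held group alone, the variance prior followed mean expression, and two-sided p-values were adjusted by Benjamini-Hochberg with a threshold of 0.05. The script was tested on simulated data in which both groups had the spread of the floxed libraries. That test therefore does not cover the wider spread among the knockout libraries. Ratios to Col1a1 + Col1a2 were compared by exact two-sided permutation tests (scipy 1.17.1). Depth was estimated from transcripts of 300 to 2000 bases, of whose low values 67.1% to 74.8% came within 0.2 of a whole fragment (40% if spread evenly); the estimate is approximate. No 2 libraries shared over 1.95% of values above 0.

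The members and the 10 other gene lists were chosen with earlier results of these data known. The text names all 10 members, Abl1, Col1a1, Col1a2, 2 to 4 genes of each list with the smallest p, and the 5 genes closest to the members' median profile. Htra2 and Znhit1 were added as genes overlapping a member, and Adipoq as a marker listed at 0. Alternatives were a pseudocount of 0.1, a filter on mean FPKM (5 or more), no filter, median-ratio and TPM scaling, limma without trend, a replicate block and leaving out each library; for the ratios, Col3a1 as denominator was chosen after seeing the data.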

Additional observations from a re-analysis of the deposited data

How the results depend on the processing

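All 9 tested genes but Tgm2 kept a log2 fold change below 0 in every alternative run, and outside the fit without knockout replicate 3 no gene of the group reached an adjusted p under 0.0601. Leaving out 1 library at a time gave 0 to 8 called members (8 without knockout replicate 3, 0 otherwise) and 0 to 3271 called genes, against 9 with all libraries: 13 without floxed replicate 1, 0 without floxed replicate 2 or 3, 2 without knockout replicate 1, 1 without knockout replicate 2 and 3271 without knockout replicate 3. Over all genes, 1 was called with a pseudocount of 0.1, without filter, with a filter of 5 on mean FPKM, with median-ratio scaling or in limma without trend, 10 with TPM scaling, and 2 with the replicate block. That block left 0 members called. Same-numbered libraries did not deviate together (correlations of -0.13, -0.07 and 0.03 for numbers 1, 2 and 3, and 1 of 6 samples correlated best with its own number), so the numbers are not taken as pairs. For Tgm2 the log2 fold change was 0.045 with median-ratio scaling and -0.30 to 0.11 with 1 library left out. The log2 ratio of Lox to type I collagen ranged from -0.0056 to 0.29 with 1 library left out (-0.0036 without floxed replicate 3). For the other 9 genes these ratios stayed above 0, and without knockout replicate 2 they were 1.02 for Plod1, 1.17 for Plod2 and Plod3 and 0.37 for Serpinh1. With Col3a1 as denominator the ratios of all 10 genes kept their direction (0.27 for Lox to 2.002 for Tgm2). The cause of these shifts was not tested. The median of the members fitted stayed between -1.32 and -0.84. It was -0.84 without filter, where Loxl4 also entered, and -0.87 with the filter of 5, where Loxl3 dropped out. In both runs the log2 fold changes of the other members were those of the main fit. Loxl3 could not be fitted with a mean FPKM of at least 5, nor Loxl4 with any filter. Depth limits Loxl4 most, since 1 FPKM stands for at most 17.9 fragments per kilobase.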
